A study of Mus musculus with 18 samples.

Results

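The comparison is between RNA pulled down with the ribosomes of retinal endothelium and RNA of the whole retina. It covers 6 of the 18 libraries of the study, 3 labelled Retina Positive and 3 labelled Retina Input, and the 12827 genes that the authors' Retina table lists. Positive libraries hold RNA that was eluted from anti-GFP beads after retina homogenate had been incubated with the antibody. Input libraries hold RNA from a portion of the cleared homogenate that had been kept back before the antibody was added. All 6 libraries, Input as well as Positive, come from retinas of mice with the genotype Cdh5(PAC)-cre/ERT2+; NuTRAP+ that had received tamoxifen (Tam in the labels). The labels give no age, sex or strain for the mice, and no number of mice for a library.

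Cdh5(PAC)-cre/ERT2 is a Cre recombinase that tamoxifen activates and that the promoter of vascular endothelial cadherin drives, so it is meant to act in endothelial cells. NuTRAP is a reporter allele that, after Cre has acted, tags ribosomal protein L10a with GFP and marks nuclei. Capture of the tagged ribosomes is known as translating ribosome affinity purification, or TRAP. A pull-down from mice without one of these alleles was not analysed here, so RNA that binds beads without a tagged ribosome has no measured background in these libraries. Nothing in the labels says whether the replicates are separate animals, so the p-values below speak only to the spread among these libraries, which may be technical. In bulk libraries such as these, fewer cells of a type and less RNA per cell cannot be told apart.

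Retinal vessels carry the inner blood-retina barrier. Their endothelial cells are joined by tight junctions of claudin and occludin, take up sugar, amino acids and lipids through carriers, expel drugs through efflux pumps and keep vesicle traffic low. Norrin from Mueller glia acts on frizzled-4 and its partners LRP5 and TSPAN12 on endothelial cells and sustains the barrier through beta-catenin. Most of the cells of the mouse retina are rods, and cones, bipolar cells, amacrine cells, ganglion cells and Mueller glia make up most of the remainder, so endothelium is a minor source of the RNA in whole retina.

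The listed genes had totals of 22126763, 12325658 and 26069649 estimated counts in Positive libraries, against 36157140, 29059581 and 20915469 in Input libraries. These are totals over listed genes, not full depths, because the authors kept a gene only when all 3 libraries of at least 1 fraction held 50 counts or more. That minimum was met in Positive libraries alone by 329 genes and in Input libraries alone by 874. A gene listed through 1 fraction alone had fewer than 50 counts in at least 1 library of the other fraction. That depends on the depth of the library as well as on the level of the gene. Counts over such genes carry no weight as evidence. Levels below are TMM-normalised CPM, counts scaled to a common library total, which are not corrected for gene length and so are compared between libraries and not between genes. Fold changes are log2 of Positive over Input ± SE from edgeR's quasi-likelihood F test, and "higher", "lower", "rose" and "fell" refer to an adjusted p under 0.05. Over all genes 1961 were higher in Positive libraries (15.3%), 1391 were lower (10.8%) and 9475 did not pass. The median gene stood at -0.0339. The gene lists below were chosen with earlier results of these data known, so counts over them are descriptions. Some genes are members of more than 1 list, so the counts of different lists are not separate. Each count is to be read beside the shares of all genes, 15.3% higher and 10.8% lower.

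The distribution was lopsided. At 2-fold or more, 1075 genes were higher (8.38%) and 95 were lower (0.741%). A rise of at least 16-fold was found for 256 genes and one of at least 64-fold for 51, whereas 14 genes fell by 4-fold or more. Of the 1075 genes, 315 were listed through Positive libraries alone, and of the 95 genes, 55 were listed through Input libraries alone. The count of lower genes depended on each Input library, at 620, 513 and 884 without Input replicate 1, 2 or 3, while the 4 counts stayed within 1.5 times of these values when 1 Positive library was left out.

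**Figure D1:**
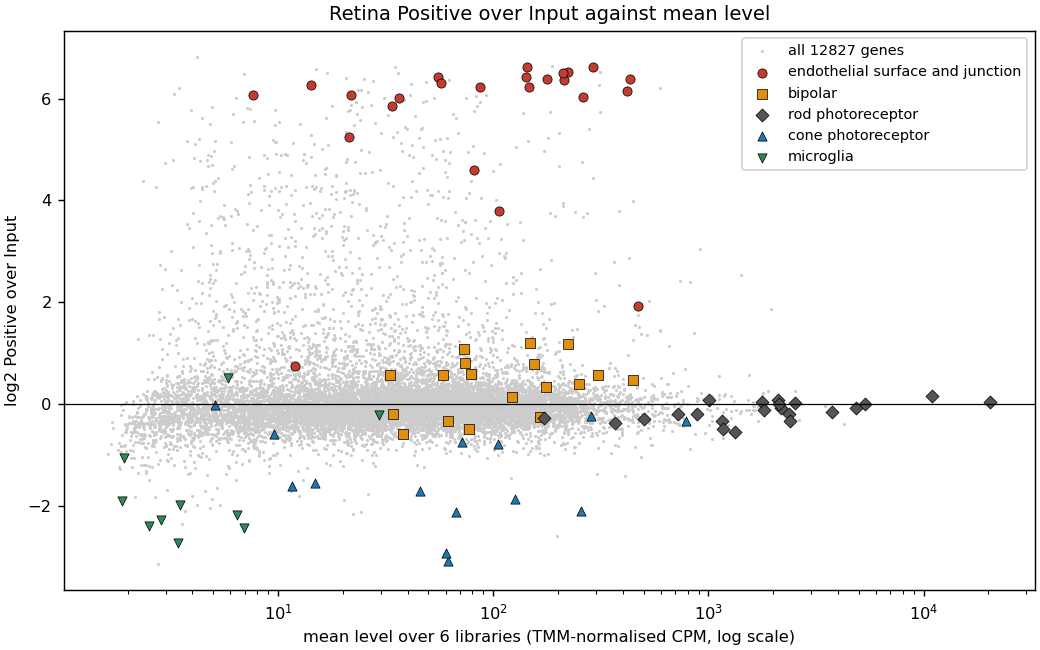
Mean level over the 6 libraries (horizontal axis, log scale) and log2 Positive over Input (vertical axis) of the 12827 listed genes. Grey dots are all genes and coloured symbols are members of 5 marker lists. Most endothelial surface genes sit near the top, bipolar genes mostly just above 0, rod genes near 0, and cone and microglial genes mostly below 0.

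Genes that define endothelium were among those with the largest rises. Cdh5, which encodes vascular endothelial cadherin and whose promoter drives the Cre, measured 192, 221 and 438 CPM in Positive libraries, against 2.75, 2.16 and 3.85 CPM in Input libraries. Every Positive library was therefore far above every Input library, and Positive replicate 3 was the highest. The change was 6.63 ± 0.40 (98.9-fold, adjusted p = 5.12e-05). Cldn5, the main claudin of barrier endothelium, measured 745, 709 and 1122 CPM in Positive libraries, against 12.8, 7.72 and 9.94 CPM in Input libraries (6.39 ± 0.28). Pecam1, an adhesion molecule of endothelial contacts, measured 336, 406 and 796 CPM in Positive libraries, against 6.49, 7.89 and 9.24 CPM in Input libraries (6.04 ± 0.38). For both genes the lowest Positive value was many times the highest Input value.

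Of the 24 genes written as endothelial surface and junction markers, all 24 were listed, 23 were higher and 1 did not pass, with a median of 6.23. Among all genes 15.3% were higher. Listing through Positive libraries alone applied to 8 of the 24. The genes that passed without overlap of the groups were ranked with predicted symbols left out, and of those with a mean of 36.5 CPM (the median gene) or more the 15 largest rises were those of Cdh5, Gpr116, Abcb1a, Eltd1, Tek, Tie1, Robo4, Ly6c1, Cldn5, Vwf, Foxf2, Eng, Srgn, Mmrn2 and Sox17. They ran from 6.30 for Sox17 to 6.63 for Cdh5. Gpr116 and Eltd1 encode adhesion G protein-coupled receptors, Tek and Tie1 the angiopoietin receptor and its partner, Robo4 an endothelial roundabout receptor and Eng a co-receptor for TGF-beta family ligands. Mmrn2 encodes a matrix glycoprotein of vessels and Srgn a proteoglycan of secretory granules. Cdh13, which encodes T-cadherin, was the member that did not pass, at 11.2, 12.5 and 21.1 CPM in Positive libraries, against 9.19, 7.79 and 9.99 CPM in Input libraries (0.74 ± 0.25, adjusted p = 0.0634). It did pass without Positive replicate 1 (adjusted p = 0.0333), by the DESeq2 Wald test (adjusted p = 0.0252) and once the replicate number entered the fit as a block (adjusted p = 0.0477).

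The promoters of the first 4 of these genes with a single entry in the RefSeq table are given because the genes rose together and because ETS factors, whose core site is GGAA, are known regulators of endothelial genes. Each line is the 250 bases before the transcription start in GRCm38.p6, 5′ to 3′ on the gene's strand, with matches to AGGAAG or its reverse complement CTTCCT in capitals. Abcb1a lies at chr5:8566841-8567090, plus strand. Eltd1 lies at chr3:151437632-151437881, plus strand. Tek lies at chr4:94739039-94739288, plus strand and Tie1 at chr4:118489850-118490099, minus strand.
Abcb1a: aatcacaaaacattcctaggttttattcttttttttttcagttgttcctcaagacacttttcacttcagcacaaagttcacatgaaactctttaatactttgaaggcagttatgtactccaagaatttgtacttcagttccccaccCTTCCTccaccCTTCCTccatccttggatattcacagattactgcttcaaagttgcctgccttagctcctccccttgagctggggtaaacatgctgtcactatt
Eltd1: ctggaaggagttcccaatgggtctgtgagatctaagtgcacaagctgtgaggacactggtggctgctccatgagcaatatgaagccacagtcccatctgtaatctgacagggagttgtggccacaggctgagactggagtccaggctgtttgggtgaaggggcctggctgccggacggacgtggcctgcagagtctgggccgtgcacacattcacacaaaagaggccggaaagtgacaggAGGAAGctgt
Tek: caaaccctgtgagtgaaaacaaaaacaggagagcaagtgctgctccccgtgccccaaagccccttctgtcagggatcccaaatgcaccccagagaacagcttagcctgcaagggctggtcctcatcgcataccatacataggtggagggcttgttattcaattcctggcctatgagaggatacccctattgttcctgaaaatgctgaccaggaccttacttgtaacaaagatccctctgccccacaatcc
Tie1: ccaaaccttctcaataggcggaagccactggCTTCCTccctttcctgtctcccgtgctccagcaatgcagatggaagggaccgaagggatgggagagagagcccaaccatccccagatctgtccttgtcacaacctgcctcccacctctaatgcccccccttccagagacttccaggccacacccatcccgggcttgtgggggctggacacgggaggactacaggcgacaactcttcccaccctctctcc
The Abcb1a window held 2 matches, the Eltd1 and Tie1 windows 1 each, and the Tek window 0. None of these windows held TAATCC or its reverse complement GGATTA, a core site of the photoreceptor factor CRX. Of the 24 surface and junction genes, 13 had a promoter in the table and 9 of these held the AGGAAG match, against 29.5% of all 32841 promoters of that table. Of the endothelial transcription factor genes 14 had a promoter and 5 of these held it. In these counts a gene with several entries held a match when any entry did, whereas the 29.5% counts every entry by itself. A gene with several entries has more chances of a match, so the counts by gene and that share are not measured alike. A match describes letters and does not show a bound site, and a window without one says nothing about binding elsewhere.

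**Figure D2:**
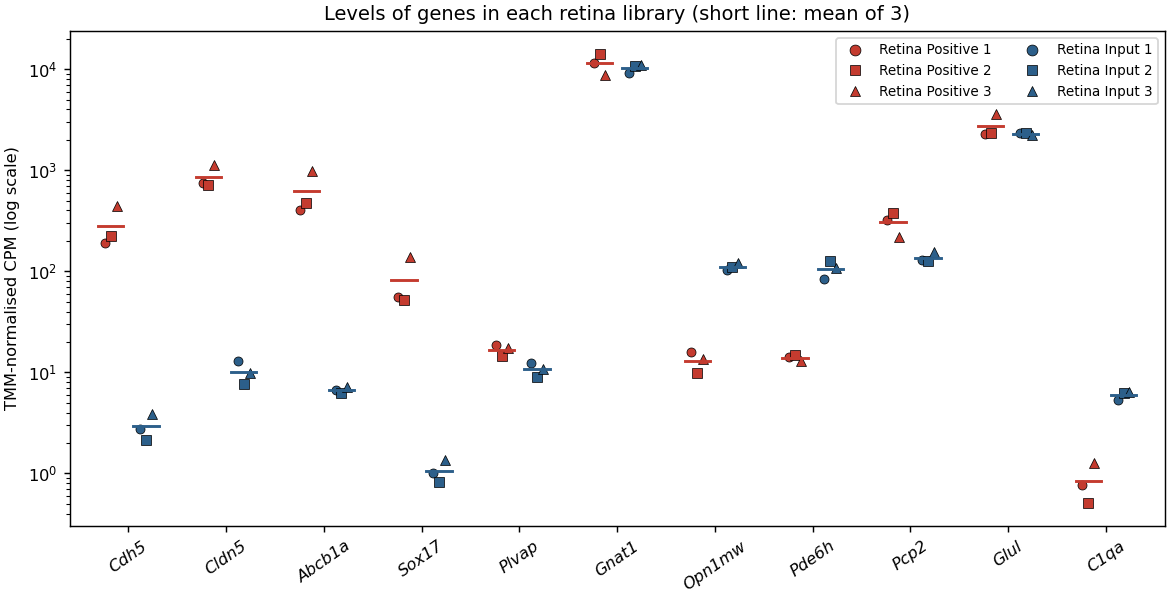
TMM-normalised CPM (log scale) of 11 genes in each library, with Positive libraries in red to the left of Input libraries in blue and symbols for replicates 1 to 3. Cdh5, Cldn5, Abcb1a and Sox17 are separated by a wide gap, the groups overlap for Gnat1, and Opn1mw, Pde6h and C1qa are lower in all 3 Positive libraries.

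All 26 genes written as endothelial transcription factors were higher, with a median of 4.94 and a range of 0.64 to 6.63. Of the 26, 16 were listed through Positive libraries alone, and the list was chosen with earlier results known. That count is therefore a description. Erg, an ETS factor needed for vascular identity, measured 49.4, 55.9 and 102 CPM in Positive libraries, against 0.741, 0.377 and 1.03 CPM in Input libraries (6.63 ± 0.41). Fli1 and Ets1, of the same family, stood at 5.58 and 5.61. Sox17, a SoxF factor of arterial endothelium, measured 55.4, 51.4 and 139 CPM in Positive libraries, against 1.01, 0.823 and 1.36 CPM in Input libraries. Its rise was 6.30 ± 0.49, and 5.69 without Positive replicate 3. Sox18, the SoxF member linked to lymphatic and vessel development, stood at 6.02.

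The flow-responsive factors Klf2 and Klf4 rose by 6.19 and 4.98, and Epas1, the hypoxia-inducible factor 2 alpha gene, by 2.42. Foxf2 and Foxq1, forkhead factors of brain endothelium, rose by 6.37 and 6.26. The smallest rise of the list was that of Nr2f2, the gene for the venous factor COUP-TFII, which is also made by retinal neurons. It measured 35.7, 39.3 and 38.8 CPM in Positive libraries, against 21.2, 29.2 and 22.7 CPM in Input libraries (0.64 ± 0.14), and the call was lost without Input replicate 3 (adjusted p = 0.0508). Hhex, a homeobox factor of endothelial precursors, measured 8.03, 9.68 and 7.52 CPM in Positive libraries, against 0.529, 0.172 and 0.657 CPM in Input libraries (4.22 ± 0.39).

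Receptors of the angiogenic pathways followed the surface markers, with 17 of 19 listed members higher, 2 not passing and a median of 3.67. Tek, the receptor for angiopoietins, measured 292, 317 and 640.2 CPM in Positive libraries, against 4.79, 4.22 and 4.69 CPM in Input libraries (6.51 ± 0.36). Flt1, the decoy-type VEGF receptor gene, measured 497, 521 and 1128 CPM in Positive libraries, against 58.8, 49.98 and 46.2 CPM in Input libraries (3.79 ± 0.33), and Nrp1, a VEGF co-receptor gene, stood at 2.78. Acvrl1, the gene for the BMP9 receptor ALK1, stood at 5.72. Kdr, the main VEGF signalling receptor gene, was different. It measured 199, 199 and 393 CPM in Positive libraries, against 171, 158 and 136 CPM in Input libraries, so that Input libraries already held high levels. Retinal neurons are known to express it in mice. The change was 0.77 ± 0.26 (adjusted p = 0.0615), and it passed without Positive replicate 1, 2 or 3 (adjusted p = 0.0394, 0.0438 and 0.0205) and by the DESeq2 Wald test (adjusted p = 0.00936). Robo1, an axon guidance receptor gene, did not pass (-0.13).

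Ligands were mixed, with 8 of 12 listed members higher, 2 lower and 2 not passing. Through Positive libraries alone came 2 of the 12. Pdgfb, which recruits pericytes, measured 120.2, 123 and 267 CPM in Positive libraries, against 2.38, 1.75 and 4.55 CPM in Input libraries (5.93 ± 0.46). Sema3g and Sema3c, endothelial semaphorin genes, rose by 5.75 and 4.95, and Dll4, the Notch ligand of tip and arterial cells, by 4.81. Vegfa, made mainly by Mueller glia and astrocytes in the retina, measured 139, 106 and 108 CPM in Positive libraries, against 177, 149.7 and 163 CPM in Input libraries (-0.47 ± 0.12). That call was lost without Positive replicate 2 or Input replicate 1 or 3 (adjusted p = 0.0723, 0.0981 and 0.075). Jag1, a Notch ligand gene, fell (-0.40), while Vegfb (-0.28) and the norrin gene Ndp (-0.42) did not pass.

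Transporters of the blood-retina barrier made up the next group, with 21 of 25 members higher, 0 lower and a median of 3.78. Listing through Positive libraries alone applied to 5 of the 25. Abcb1a, the P-glycoprotein efflux pump gene, measured 406, 474 and 979.7 CPM in Positive libraries, against 6.75, 6.31 and 7.22 CPM in Input libraries (6.52 ± 0.38). Abcg2, a second efflux pump gene, rose by 3.78. Slc2a1, the GLUT1 glucose transporter gene that Mueller glia and photoreceptors also use, measured 1096, 1246 and 2572 CPM in Positive libraries, against 218, 187 and 188 CPM in Input libraries (3.05 ± 0.32). Mfsd2a, the lysolipid transporter gene that restrains transcytosis, measured 69.03, 56.7 and 148 CPM in Positive libraries, against 2.12, 1.72 and 2.67 CPM in Input libraries (5.42 ± 0.42). Slc2a1 and Mfsd2a had no overlap between groups, and Abcb1a had been ranked only among genes without overlap. Slco1a4, an organic anion carrier gene, Slc52a3, a riboflavin carrier gene, and Slc38a5, a glutamine carrier gene, stood at 6.26, 6.34 and 5.62. The thyroid hormone carrier gene Slco1c1 stood at 5.22. The members that did not pass were Slc38a3 (-0.0943), the taurine carrier gene Slc6a6 (0.25), the transferrin receptor gene Tfrc (-0.19) and the insulin receptor gene Insr (0.35).

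Of 20 tight and adherens junction genes 15 were higher, 0 lower and 5 did not pass, with a median of 1.10, below that of the surface markers. Ocln, the occludin gene, measured 74.6, 83.2 and 143 CPM in Positive libraries, against 5.29, 2.61 and 1.88 CPM in Input libraries (4.89 ± 0.41), and Lsr, a tricellular junction gene, rose by 5.07. Some other members, among them genes known also from neurons and glia, had smaller ratios, and the part of those cells was not tested. Tjp1, the ZO-1 scaffold gene, measured 267, 296 and 463 CPM in Positive libraries, against 129, 133 and 109.9 CPM in Input libraries (1.46 ± 0.20), and Ctnnb1, the beta-catenin gene, rose by 1.14. Cldn12 (-0.11), Jam3 (-0.21), Tjp3 (0.69), Cgn (0.44) and Mllt4, the afadin gene (0.45), did not pass. Without Input replicate 1 Tjp3 and Cgn did (adjusted p = 0.0241 and 0.0293), and without Positive replicate 2 Mllt4 did (adjusted p = 0.0442).

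Genes of norrin and Wnt signalling were higher for 16 of 21 listed members and 14 of 21 with the authors' own scaling factors, with a median of 2.05. Of the 21, 6 were listed through Positive libraries alone. The receptor gene Fzd4 measured 42.97, 48.6 and 114 CPM in Positive libraries, against 17.9, 17.97 and 13.9 CPM in Input libraries. Its rise was 2.05 ± 0.36, and 1.46 without Positive replicate 3. The co-receptor genes Lrp5 and Tspan12 rose by 2.89 and 1.59. The nuclear factor gene Lef1 measured 51.05, 53.5 and 85.5 CPM in Positive libraries, against 0.953, 0.960 and 1.97 CPM in Input libraries (5.67 ± 0.33), and Tnfrsf19, a Wnt-responsive receptor gene, stood at 5.40. Axin2, a general target of beta-catenin, rose by 0.65 ± 0.19. That call was lost with the authors' factors (adjusted p = 0.0596) and without Input replicate 1, 2 or 3 (adjusted p = 0.122, 0.127 and 0.101). Lrp6 (0.14), Tcf7l2 (0.57) and the ubiquitin ligase genes Znrf3 (0.14) and Rnf43 (0.17) did not pass, and neither did Ndp.

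Markers of the arterial and the venous side were both high. Of 16 arterial genes 13 were higher, 1 was lower and 2 did not pass, with a median of 4.34 and 9 of the 16 listed through Positive libraries alone. Gkn3, a secreted protein gene of arterial endothelium in mouse brain, measured 36.4, 27.5 and 58.9 CPM in Positive libraries, against 0.953, 0.172 and 0.141 CPM in Input libraries. Its rise was 6.41 ± 0.56, and 7.97 without Input replicate 1, the Input library with the most counts of it. Bmx, an arterial kinase gene, rose by 5.77 ± 0.61, and by 6.37 without Input replicate 3. Mgp, the matrix Gla protein gene, rose by 5.86. Jag1 was the lower member, and Alpl (0.14) and Stmn2, which neurons express (-0.13), did not pass.

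Of 10 listed venous genes 9 were higher, with a median of 4.05, and 3 of the 10 were listed through Positive libraries alone. Vwf, the von Willebrand factor gene, measured 269, 306 and 475 CPM in Positive libraries, against 4.71, 3.64 and 4.13 CPM in Input libraries (6.39 ± 0.26), and Ephb4, the venous ephrin receptor gene, rose by 4.63. Vcam1 and Icam1, leukocyte adhesion genes, rose by 3.58 and 4.52. Lcn2, the lipocalin-2 gene, stood at 0.0331 and did not pass.

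Markers of fenestrated endothelium, the leaky type of the choriocapillaris, gave 4 higher of 7 listed members, with a median of 0.77. Plvap, the gene of the diaphragm protein of fenestrae, measured 18.6, 14.6 and 17.2 CPM in Positive libraries, against 12.3, 8.95 and 10.7 CPM in Input libraries. The groups did not overlap, but the change was 0.66 ± 0.17 and the call was lost without Positive replicate 1 or Input replicate 2 or 3 (adjusted p = 0.0572, 0.0948 and 0.0719). Igfbp3, a growth factor binding protein gene, stood at 5.12. Ramp3 (-0.30), Ppap2b (0.12) and Kdr did not pass.

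Genes of caveolae and transcytosis were higher for 7 of 10 members. Cav1, the caveolin-1 gene, measured 129.8, 135 and 199 CPM in Positive libraries, against 60.7, 56.3 and 48.8 CPM in Input libraries (1.49 ± 0.17). Cav2 rose by 1.54, and the cavin genes Ptrf and Sdpr by 5.05 and 6.06. Ehd4 (0.71), Pacsin2 (-0.0195) and the lipoprotein receptor gene Lrp1 (0.0880) did not pass. Ehd4, a membrane-remodelling ATPase gene, passed with the replicate block (adjusted p = 0.00207), by the DESeq2 Wald test (adjusted p = 0.0216) and without Positive replicate 1 (adjusted p = 0.0442).

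Signals that endothelium sends to the vessel wall and the blood were higher as well. Of 12 listed vasoactive genes 8 were higher and 1 was lower. Nos3, the endothelial nitric oxide synthase gene, measured 144, 155 and 282 CPM in Positive libraries, against 11.97, 12.4 and 11.96 CPM in Input libraries (4.00 ± 0.27). Edn1, the endothelin-1 gene, rose by 3.98 and Ramp2, a partner of the adrenomedullin receptor, by 5.32. Hpgd, a prostaglandin-degrading enzyme gene, stood at -0.61 ± 0.17 and was the lower member. Its call was lost without Positive replicate 2 or 3 (adjusted p = 0.0791 and 0.0553) and without Input replicate 1, 2 or 3 (adjusted p = 0.111, 0.0898 and 0.105). The endothelin receptor gene Ednrb (-0.19) and the guanylyl cyclase genes Gucy1a3 (-0.25) and Gucy1b3 (-0.13) did not pass.

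Among 9 listed leukocyte adhesion genes 7 were higher, with a median of 3.58. All 7 are also members of the surface and junction, venous or tight junction lists above. The members on none of those lists, Cd99l2 (0.36) and Cd47 (0.26), did not pass, though Cd47 did without Positive replicate 1 (adjusted p = 0.047). Among 9 listed coagulation genes 7 were higher. Listing through Positive libraries alone applied to 2 of the leukocyte adhesion genes and 3 of the coagulation genes. Thbd, the thrombomodulin gene, measured 60.2, 71.6 and 147 CPM in Positive libraries, against 0.821, 1.51 and 2.53 CPM in Input libraries (5.93 ± 0.49). Plat, the tissue plasminogen activator gene, rose by 3.59, while F8 (-0.28) and F2r (-0.0710) did not pass.

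Immune genes of vessels formed 3 groups in which every listed member was higher. These were 15 of 15 genes of MHC class I presentation (median 2.39), 16 of 16 interferon-stimulated genes (median 3.17) and 9 of 9 Ly6 and Gimap genes (median 5.33). Through Positive libraries alone came 3, 4 and 5 of them. B2m, the light chain of MHC class I, measured 251, 255 and 522 CPM in Positive libraries, against 34.9, 15.6 and 25.4 CPM in Input libraries (3.76 ± 0.39). Psmb9, an immunoproteasome subunit gene, rose by 3.82. H2-D1 and H2-K1 rose by 2.58 and 2.84, and as near-identical copies their reads may have been split by the counting.

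Ifitm3, an interferon-induced membrane protein gene, measured 106, 126 and 214 CPM in Positive libraries, against 5.27, 3.26 and 6.003 CPM in Input libraries (4.95 ± 0.33), and Rtp4 rose by 4.73. Gimap5, a GTPase gene known from lymphocytes, measured 8.39, 10.9 and 21.7 CPM in Positive libraries, against 0.106, 0.172 and 0.188 CPM in Input libraries (6.48 ± 0.51). Ly6c1, a marker of brain endothelium in mice, rose by 6.40. In contrast to these groups, microglial genes were lower, as described further on. Genes of lymphocytes and monocytes were not a list here, and their part in these rises was not tested.

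Basement membrane and integrin genes were higher for 17 of 18 listed members, with a median of 2.43. Of the 18, 2 were listed through Positive libraries alone. Col4a1, a type IV collagen gene, measured 138, 141 and 349.97 CPM in Positive libraries, against 44.05, 30.5 and 36.7 CPM in Input libraries. Its rise was 2.50 ± 0.37, and 1.91 without Positive replicate 3. Col4a2 rose by 2.37, the perlecan gene Hspg2 by 4.19 and the fibronectin gene Fn1 by 4.44. Lamb1, the laminin beta 1 gene, did not pass (-0.0138). Of 16 genes of small GTPase and actin control in endothelium 15 were higher, among them Rasip1, a Rap1 effector gene (3.35), She, an adaptor gene (5.96), and Fgd5, a Cdc42 exchange factor gene (4.89). Radil, another Rap1 effector gene, stood at -0.39 ± 0.12 (adjusted p = 0.0539) and was lower with the authors' factors (adjusted p = 0.0438) and by the DESeq2 Wald test (adjusted p = 0.0396).

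**Figure D3:**
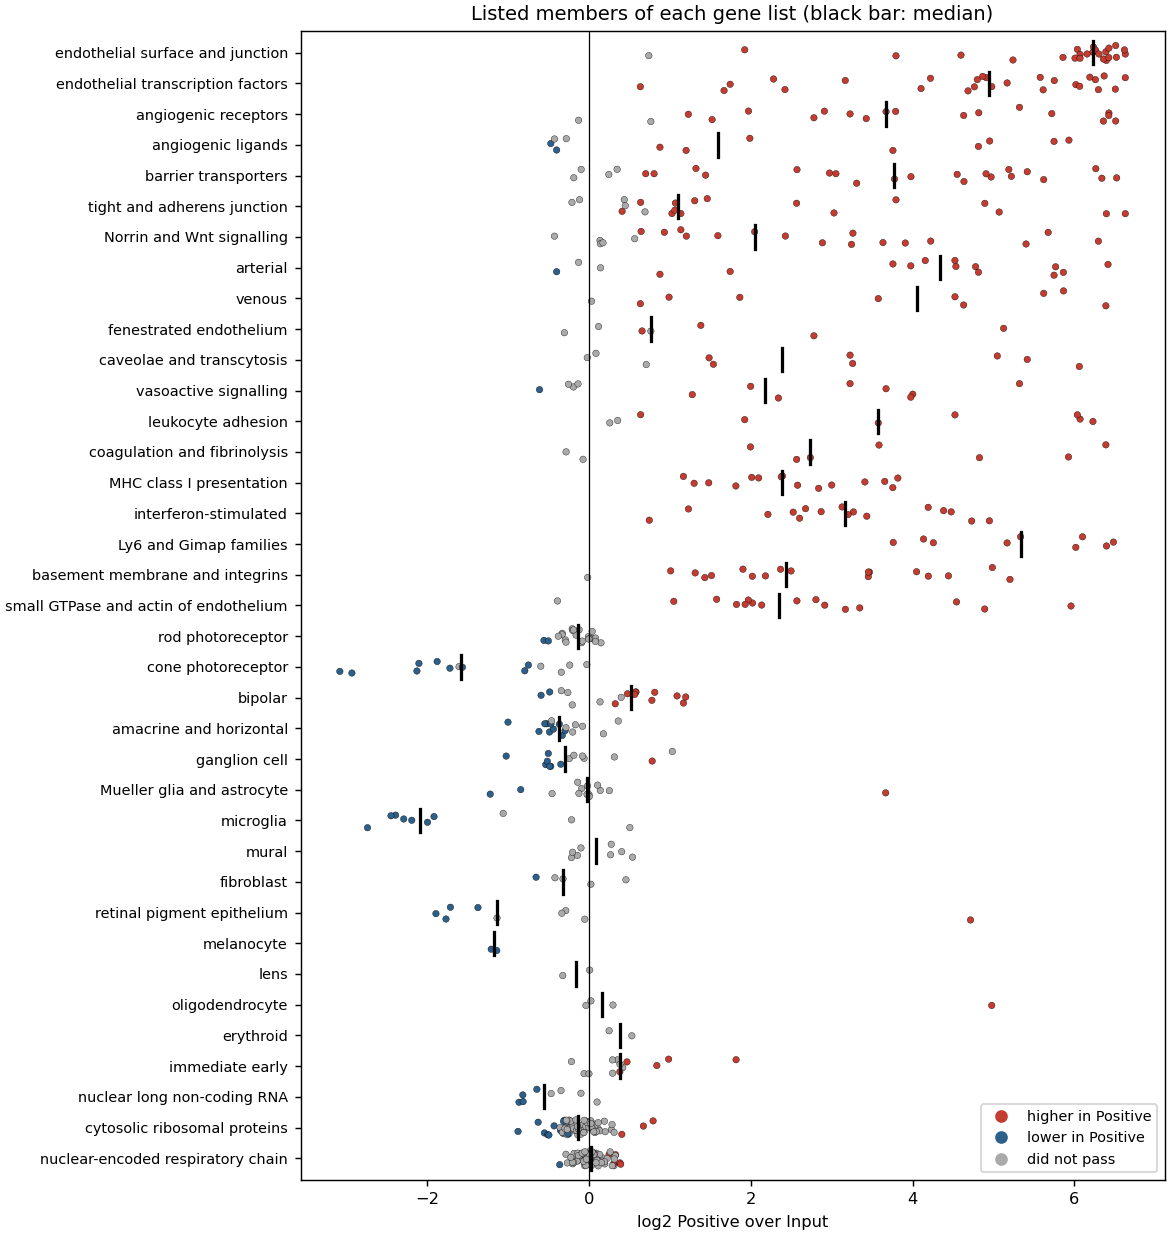
Log2 Positive over Input of the listed members of each gene list, 1 dot a gene, red where higher, blue where lower and grey where the test was not passed, with the median as a black bar. Endothelial lists reach from about 0 to above 6, the cone list lies below 0, and the bipolar list lies mostly above it.

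Below the median level, by the same choice, the largest rises were those of Cytl1, Erg, Zfp366, Gimap5, Gkn3, Grap, Slc52a3, Ecscr, Pmaip1 and Srms. At such levels a rise of this size leaves few reads in Input libraries. These genes met the minimum of 50 counts through Positive libraries, where they are high, and the sizes of their ratios are uncertain. Cytl1, a cytokine-like gene, measured 7.31, 5.47 and 12.1 CPM in Positive libraries, against 0.0529, 0 and 0.188 CPM in Input libraries and stood highest of all listed genes at 6.82 ± 0.64, and 7.92 without Input replicate 3. Its Input libraries held only 2, 0 and 3.76 counts, so the size of the ratio rests on very few reads. Zfp366 rose by 6.50, and by 5.82 without Positive replicate 3. Srms, a kinase gene, rose by 6.20, and by 7.26 without Input replicate 1. Ecscr, an endothelial surface regulator gene, Grap, an adaptor gene, and Pmaip1, the NOXA gene, stood at 6.26, 6.38 and 6.23. Tmem100, a gene downstream of ALK1, measured 10.5, 7.07 and 8.36 CPM in Positive libraries, against 0.106, 0.240 and 0.188 CPM in Input libraries (5.62 ± 0.35).

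The 3 Positive libraries were not alike. The 24 endothelial surface genes took 0.509, 0.522 and 1.02% of the listed counts in Positive libraries, against 0.0323, 0.0298 and 0.0297% in Input libraries. Positive replicate 3 thus stood above the other 2 Positive libraries, which lay close together, as did the Input libraries. With 3 libraries on each side, the smallest p of a two-sided exact permutation test is 0.1, and shares are given without a test. The median ratio of Positive replicate 3 over replicate 1 was 2.24 for these 24 genes (range 1.51 to 2.53). Over replicate 2 it was 1.95 (range 1.47 to 2.34). Over all listed genes the medians were 0.99 and 1.02.

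Replicate 3 was the highest Positive library for all 24 surface genes, for 24 of 26 transcription factor genes and for 234 of all 259 endothelial list members. It was the highest for 1041 of the 1075 genes that rose at least 2-fold (96.8%), against 4990 of all 12827 genes (38.9%). The 34 exceptions included the endothelial genes Tmem100 and Hhex, the drug-metabolising enzyme gene Cyp2e1, whose ratios to replicates 1 and 2 were 1.39 and 0.86, and the bipolar cell genes Pcp2, Car8 and Sebox. Photoreceptor and bipolar genes showed the opposite order, with replicate 3 the highest for 0 of 22 rod genes, 0 of 14 cone genes and 0 of 18 bipolar genes. Their median ratios of replicate 3 over replicate 1 were 0.75, 0.80 and 0.82.

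Mueller glia and astrocyte genes went with the endothelial genes across the Positive libraries, replicate 3 being the highest for 12 of 14, with median ratios of 1.57 over replicate 1 and 1.76 over replicate 2. Mueller glia and astrocyte genes took 0.482, 0.441 and 0.733% of the listed counts in Positive libraries, against 0.576, 0.509 and 0.520% in Input libraries. Glul, the glutamine synthetase gene of Mueller glia, measured 2298, 2333 and 3601 CPM in Positive libraries, against 2355, 2321 and 2227 CPM in Input libraries, so that replicate 3 lay above every Input library and replicates 1 and 2 below the highest of them. The part of glial RNA in the higher level of replicate 3 was not tested. Without Positive replicate 3 the fit still gave 2097 higher and 1540 lower genes, and 915 and 80 of these at 2-fold or more.

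**Figure D4:**
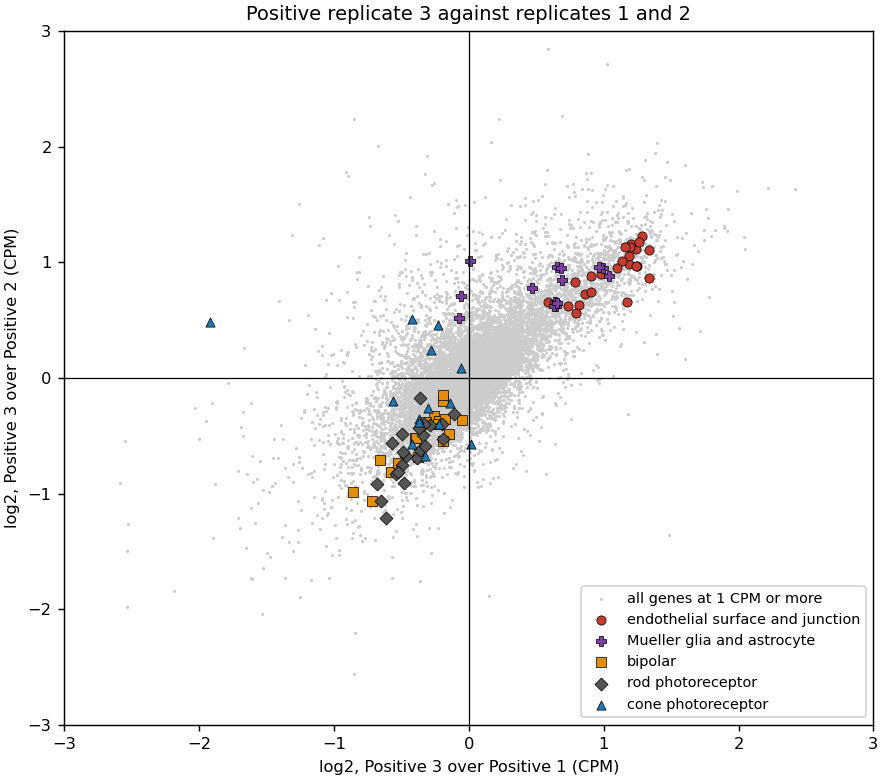
Log2 ratio of Positive replicate 3 over replicate 1 (horizontal axis) and over replicate 2 (vertical axis) for genes at 1 CPM or more in the mean of the 6 libraries. Endothelial surface genes and most Mueller glia and astrocyte genes lie in the upper right, rod and bipolar genes in the lower left.

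Genes of neurons and glia, which the pull-down is not meant to capture, were present in every Positive library. Of the rod genes 20 of 22 did not pass, with 2 lower, 0 higher and a median of -0.14. Gnat1, the rod transducin gene, measured 11439, 14217 and 8774 CPM in Positive libraries, against 9089, 10833 and 11109 CPM in Input libraries. The groups overlapped, at 0.15 ± 0.19. The rods' part of the listed counts overlapped too, with 7.09, 8.19 and 4.998% of the listed counts in Positive libraries, against 6.46, 7.55 and 7.63% in Input libraries. Rp1, an axoneme gene, and Abca4, a retinoid flippase gene, were the lower members (-0.55 and -0.50). The call of Rp1 was lost without Positive replicate 1 or Input replicate 1 or 2 (adjusted p = 0.0635, 0.0552 and 0.0942). That of Abca4 was lost without Positive replicate 2 or Input replicate 1 or 2 (adjusted p = 0.051, 0.0785 and 0.0958).

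Cone genes were mostly lower. Of 14 cone genes 9 were lower, against 10.8% of all genes. The other 5 did not pass, 0 were higher and the median was -1.58. Cone genes took 0.147, 0.140 and 0.107% of the listed counts in Positive libraries, against 0.236, 0.260 and 0.265% in Input libraries, without overlap. Opn1mw, the middle-wave cone opsin gene, measured 15.7, 9.77 and 13.4 CPM in Positive libraries, against 103, 109.9 and 119.9 CPM in Input libraries (8.43-fold lower, -3.08 ± 0.16, adjusted p = 5.12e-05). Opn1sw, the short-wave cone opsin gene, measured 118, 91.9 and 80.1 CPM in Positive libraries, against 397, 444 and 404 CPM in Input libraries (-2.10 ± 0.15). Pde6h, the inhibitory subunit gene of cone phosphodiesterase, measured 14.2, 14.99 and 12.9 CPM in Positive libraries, against 83.6, 127 and 108 CPM in Input libraries (-2.93 ± 0.16). All 3 belong to the largest decreases, which were ranked only among genes without overlap of the groups.

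Pde6c, the catalytic subunit gene of that enzyme, stood at -2.12 ± 0.10, Gnat2 and Gngt2, which encode subunits of cone transducin, at -1.87 ± 0.14 and -1.72 ± 0.16, and Cngb3, a cone channel subunit gene, at -1.56 ± 0.22. Gnat1, the rod counterpart of Gnat2, did not pass. Thrb, the thyroid hormone receptor gene that directs middle-wave cones, fell by 0.75. Arr3, the cone arrestin gene, stood at -0.79 ± 0.20, a call lost without Input replicate 1, 2 or 3 (adjusted p = 0.073, 0.0578 and 0.0796). Cnga3, the partner of Cngb3, measured 11.6, 2.19 and 3.06 CPM in Positive libraries, against 15.04, 18.9 and 18.7 CPM in Input libraries and did not pass (-1.60 ± 0.52, adjusted p = 0.0565). It passed without Positive replicate 1 (-2.67, adjusted p = 4.16e-04) and with the replicate block (adjusted p = 0.0407). Gnb3 (-0.24) and Guca1a (-0.34), which other retinal cells also express, did not pass.

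The promoters of 4 cone genes, chosen in the same way from the largest decreases, are shown, with matches to TAATCC or GGATTA in capitals, since CRX is a known regulator of photoreceptor genes. Opn1mw lies at chrX:74127216-74127465, plus strand. Pde6h lies at chr6:136954273-136954522, plus strand. Opn1sw lies at chr6:29380514-29380763, minus strand and Gnat2 at chr3:108092816-108093065, plus strand.
Opn1mw: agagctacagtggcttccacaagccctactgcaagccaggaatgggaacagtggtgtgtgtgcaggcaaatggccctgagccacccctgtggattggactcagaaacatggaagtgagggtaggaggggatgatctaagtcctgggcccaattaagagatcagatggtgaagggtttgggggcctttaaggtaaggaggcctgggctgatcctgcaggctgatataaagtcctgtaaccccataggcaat
Pde6h: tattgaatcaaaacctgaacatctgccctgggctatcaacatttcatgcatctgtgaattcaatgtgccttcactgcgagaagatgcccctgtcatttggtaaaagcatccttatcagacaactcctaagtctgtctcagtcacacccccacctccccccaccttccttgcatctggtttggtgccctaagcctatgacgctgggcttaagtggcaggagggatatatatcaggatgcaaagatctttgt
Opn1sw: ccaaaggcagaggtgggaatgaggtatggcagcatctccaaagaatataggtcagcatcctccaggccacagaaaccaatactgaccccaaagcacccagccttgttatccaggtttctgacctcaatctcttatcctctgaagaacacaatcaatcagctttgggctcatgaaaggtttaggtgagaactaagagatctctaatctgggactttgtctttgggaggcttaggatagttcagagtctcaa
Gnat2: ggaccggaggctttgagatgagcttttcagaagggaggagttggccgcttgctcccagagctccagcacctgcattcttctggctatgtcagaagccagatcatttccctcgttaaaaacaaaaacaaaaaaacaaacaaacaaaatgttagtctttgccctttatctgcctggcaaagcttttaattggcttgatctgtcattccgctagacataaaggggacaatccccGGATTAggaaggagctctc
The Gnat2 window held 1 match, which overlaps a match to AGGAAG or CTTCCT, and the other windows held 0. The Pde6h window also held 1 match to AGGAAG or CTTCCT. Of the cone genes 9 had a promoter in the table and 3 of these held a TAATCC or GGATTA match. Of the rod genes 16 had one and 6 held it, and of all promoters 6.25% held it. That share again counts every entry by itself and is not measured like the counts by gene.

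Bipolar cell genes were the one neural list that was mostly higher, at 11 of 18, against 15.3% of all genes. Of the rest 2 were lower and 5 did not pass, and the median of the list was 0.52. Pcp2, a Go modulator gene of ON bipolar cells, measured 323, 381 and 217 CPM in Positive libraries, against 128, 126 and 155 CPM in Input libraries (1.17 ± 0.20). Every Positive value lay above every Input value, with replicate 3 the lowest of the Positive libraries. Car8 and Sebox, markers of rod bipolar cells in mice, rose by 1.20 and 1.09. The call of Sebox was lost without Input replicate 2 (adjusted p = 0.06). Prkca, the protein kinase C alpha gene of rod bipolar cells, rose by 0.48, a call lost without Input replicate 1 or 3 (adjusted p = 0.0836 and 0.0765). Grik1, a kainate receptor gene of OFF bipolar cells, was lower at -0.48, a call lost without Input replicate 1 or 3 (adjusted p = 0.0549 and 0.0527). Of the 18 genes, 7 were higher without Positive replicate 1 or 2 or Input replicate 1, and 5 without Input replicate 2 or 3. The lower members numbered 1 without Positive replicate 1 or Input replicate 2 or 3, and 0 without Input replicate 1. Bipolar genes took 0.301, 0.326 and 0.232% of the listed counts in Positive libraries, against 0.223, 0.210 and 0.211% in Input libraries, without overlap.

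Amacrine and horizontal cell genes were mostly lower, with 10 of 17 listed members lower, 0 higher and a median of -0.36. The shares of all genes were 10.8% lower and 15.3% higher. Gad1, a GABA synthesis gene, measured 237, 223 and 216 CPM in Positive libraries, against 339, 322 and 310.1 CPM in Input libraries (-0.52 ± 0.0811), and Calb1, the calbindin gene of horizontal cells, fell by 0.54. The count was 5 without Positive replicate 1, and 4, 3 and 3 without Input replicate 1, 2 or 3, and 1 gene was higher without Positive replicate 3. Ganglion cell genes were lower for 7 of 14 members and higher for 1, with a median of -0.29, and 4 were lower without Input replicate 2. The higher member was lost without any 1 Input library, under the authors' factors and under DESeq2 size factors, and 3 were higher without Positive replicate 1. Nefl, the neurofilament light chain gene, measured 424, 398 and 378 CPM in Positive libraries, against 578, 567 and 567 CPM in Input libraries (-0.51 ± 0.0844). Opn4, the melanopsin gene of photosensitive ganglion cells, stood at -1.02 ± 0.27, a call lost without Positive replicate 2 or Input replicate 1, 2 or 3 (adjusted p = 0.0574, 0.0651, 0.0929 and 0.0702). Pou4f1, the BRN3A gene, measured 52.3, 77.1 and 181 CPM in Positive libraries, against 46.6, 52.7 and 53.2 CPM in Input libraries and did not pass (1.03 ± 0.39, adjusted p = 0.0903), though it did without Positive replicate 1 (adjusted p = 0.0203).

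Of 14 listed Mueller glia and astrocyte genes 1 was higher, 2 were lower and 11 did not pass. Gja1, the connexin 43 gene, measured 25.3, 25.4 and 49.4 CPM in Positive libraries, against 3.44, 1.68 and 2.72 CPM in Input libraries (3.67 ± 0.36). Its Positive levels were several times the Input levels, which set it apart from the other 13, and the gene is known from endothelium as well as from astrocytes. Rlbp1, the gene of a retinaldehyde-binding protein of Mueller glia, measured 361, 292 and 567 CPM in Positive libraries, against 461, 370.4 and 388 CPM in Input libraries (0.00209 ± 0.23). Gfap and S100b, astrocyte genes, were lower at -0.84 and -1.22. The call of Gfap was lost without Positive replicate 2 or Input replicate 1, 2 or 3 (adjusted p = 0.0507, 0.062, 0.0772 and 0.114), and that of S100b without Input replicate 2 or 3 (adjusted p = 0.07 and 0.0746). The lower members numbered 7 without Positive replicate 3, 1 without Positive replicate 2 or Input replicate 1, and 0 without Input replicate 2 or 3.

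Microglial genes were lower for 7 of 10 listed members, against 10.8% of all genes, with 0 higher and a median of -2.09. However, 8 of the 10 were listed through Input libraries alone. C1qa, a complement gene of microglia, measured 0.763, 0.505 and 1.27 CPM in Positive libraries, against 5.27, 6.24 and 6.43 CPM in Input libraries (-2.73 ± 0.32). Csf1r and Cx3cr1, microglial receptor genes, stood at -2.19 and -1.99, and Ctss, the cathepsin S gene, at -2.44. All of these lay below 36.5 CPM in the mean, where by the same choice as for the rises the largest decreases were those of Lrrc17, C1qa, Ctss, C1qc, Tex28, C1qb, Csf1r, Mpeg1, Cckbr and Cx3cr1. Lrrc17 stood at -3.15 ± 0.49, and -3.93 without Positive replicate 1. Laptm5, a lysosomal membrane protein gene of blood cells, was among the members that did not pass (0.51).

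Pericytes and smooth muscle cells share the vessel wall with endothelium, and their genes showed no call. Of 18 mural genes 8 were listed, 4 of them through Input libraries alone. For these 8 genes edgeR gave 0 calls, DESeq2 gave 0 and 0 had an unadjusted p under 0.05, with a median of 0.0857. Without Positive replicate 2 edgeR gave 2. Rgs5, a pericyte gene, measured 26.2, 6.74 and 17.9 CPM in Positive libraries, against 11.3, 11.97 and 15.8 CPM in Input libraries (0.41 ± 0.40), and Pdgfrb, the receptor gene for the endothelial signal PDGF-B, measured 13.5, 8.67 and 16.6 CPM in Positive libraries, against 16.9, 12.7 and 12.2 CPM in Input libraries (-0.0973 ± 0.24). Notch3, the receptor gene of smooth muscle cells, stood at 0.27. The groups overlapped for these genes. Rgs5 passed without Positive replicate 2 (adjusted p = 0.0475). Of 5 listed fibroblast genes, 2 of them listed through Input libraries alone, 1 was lower, but 0 without Positive replicate 2 or 3 or any 1 Input library, and 2 without Positive replicate 1.

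Genes of tissue next to the retina were also counted. Of 9 listed genes of the retinal pigment epithelium, 3 of them listed through Input libraries alone, 4 were lower and 1 was higher. Of all genes 10.8% were lower and 15.3% higher. Ttr, the transthyretin gene, measured 19.1, 7.49 and 8.79 CPM in Positive libraries, against 58.1, 28.4 and 35.1 CPM in Input libraries (-1.76 ± 0.39). Rgr, a retinal opsin gene, stood at -1.89 ± 0.50, but at -1.30 without Input replicate 1, and its call was lost without Positive replicate 2 or Input replicate 1 (adjusted p = 0.0637 and 0.0832). The lower count was 2 without Positive replicate 2, 1 without Input replicate 1 and 2 without Input replicate 3. Stra6, the receptor gene for retinol-binding protein, went the other way at 182, 167 and 276 CPM in Positive libraries, against 11.5, 6.86 and 4.97 CPM in Input libraries (4.72 ± 0.33), and the gene is known from brain endothelium in mice too. Both listed melanocyte genes were listed through Input libraries alone and were lower, and 1 of them without Positive replicate 1 or any 1 Input library. The 2 listed lens genes and 2 listed globin genes did not pass, except 1 globin gene without Positive replicate 3. Of the 4 listed oligodendrocyte genes Mal, a gene for a myelin and lymphocyte membrane protein, measured 192, 278 and 530.2 CPM in Positive libraries, against 17.7, 2.68 and 11.1 CPM in Input libraries. It rose by 4.98 ± 0.66, and by 5.64 without Input replicate 1, while the other 3 did not pass.

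Some RNA classes moved by small amounts or held few calls. Malat1, a long non-coding RNA of the nucleus, measured 242, 203 and 206 CPM in Positive libraries, against 438, 389.5 and 355 CPM in Input libraries (-0.86 ± 0.11), and 4 of 8 listed nuclear long non-coding RNAs were lower and 0 higher. Of 78 cytosolic ribosomal protein genes 14 were lower (17.9%), 3 higher (3.85%) and 61 did not pass, with a median of -0.13. Over all genes 10.8% were lower and 15.3% higher. With DESeq2 size factors 9 were lower, and without Positive replicate 1 or Input replicate 1, 2 or 3 the number was 6, 7, 7 and 6, and 5 were higher without Positive replicate 1. Rpl10a, the gene of the protein that NuTRAP tags, measured 264, 273 and 337 CPM in Positive libraries, against 188, 166 and 195 CPM in Input libraries (0.67 ± 0.12). Reads of the tagged copy and of the endogenous gene cannot be told apart in these tables. Of 78 nuclear-encoded respiratory chain genes 5 were higher (6.41%), 1 was lower (1.28%) and 72 did not pass. Both shares lay below those of all genes, and the lower member was lost when any 1 library was left out. The higher count was 11 without Positive replicate 3, 2 without Positive replicate 2, and 1 and 0 without Input replicate 1 or 2, and 3 with the authors' factors.

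Of 13 listed immediate early genes 5 were higher and 0 lower, led by Zfp36, a gene for an mRNA-decay factor, at 16.3, 17.9 and 35.1 CPM in Positive libraries, against 6.54, 5.93 and 7.32 CPM in Input libraries (1.82 ± 0.30), and Dusp1, a phosphatase gene, at 0.99. Outside the cone genes, and by the same choice as for the rises, the largest decreases at or above the median level were those of Nrsn1, Fth1, Pigm, Zbtb6, Ranbp6, Ybx1, Zfp329, Pclo and Prkrir. Fth1, the ferritin heavy chain gene, measured 241, 213 and 214 CPM in Positive libraries, against 582, 575 and 621 CPM in Input libraries (-1.41 ± 0.0910), and Ftl1, the light chain gene, stood at -0.97. Ybx1, a gene for an RNA-binding protein that packages mRNA, fell by 1.03, and Pclo, a presynaptic scaffold gene, by 1.01. Genes with zinc finger symbols (Zfp, Zbtb, Zscan or Zkscan) were lower for 62 of 383 and higher for 12, with a median of -0.18. Among all listed genes 10.8% were lower and 15.3% higher, and this group was chosen after its values had been seen.

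Brain was the comparison most like this one, since its vessels also form a barrier and came from mice of the same genotype. Over the 12438 genes listed in both tables, Positive over Input was larger in retina than in brain for 3590 genes (28.9%) and smaller for 2482 (20.0%), tested as an interaction in 1 fit of 12 libraries. The median difference was 0.089. Of the 259 members of the endothelial lists, 64 had a larger and 55 a smaller ratio in retina, and 140 did not pass. These shares lay near those of all genes, so the counts are no trait of the endothelial lists. Of the 24 surface and junction genes 16 had a larger and 2 a smaller ratio in retina. Cdh5 stood at 6.65 in retina and 5.09 in brain, a difference of 1.56 ± 0.40 (adjusted p = 0.00674). A ratio to Input depends on the level in Input. Log2 values and CPM in this comparison come from the joint scaling of the 12 libraries, so those of retina differ slightly from the values above. Cdh5 measured 201, 234 and 469.9 CPM in Retina Positive libraries, against 2.87, 2.27 and 4.04 CPM in Retina Input libraries. In brain it measured 357, 389 and 355 CPM in Positive libraries, against 10.2, 10.5 and 11.6 CPM in Input libraries. The 2 tables were filtered separately by the authors.

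Mfsd2a had the larger ratio in retina by 2.61 ± 0.43 (adjusted p = 3.97e-04), and Tek by 1.29 ± 0.36. Kdr had the smaller one, at 0.79 in retina and 5.02 in brain (-4.24 ± 0.32, adjusted p = 1.54e-06). Its Input libraries held 178, 166 and 143 CPM in retina and 7.46, 7.01 and 8.08 CPM in brain. Cav1 and Slc2a1 also had smaller ratios in retina (-3.14 ± 0.23 and -1.34 ± 0.35). Both are known also from glia or neurons of the retina, whose part in these differences was not tested. Among neural lists, 9 of 10 bipolar genes listed in both tables had a larger ratio in retina. Ribosomal protein genes had a smaller ratio in retina for 77 of 78, with a median of -0.11 in retina and 0.79 in brain, and all 5 fibroblast genes had a smaller one.

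**Figure D5:**
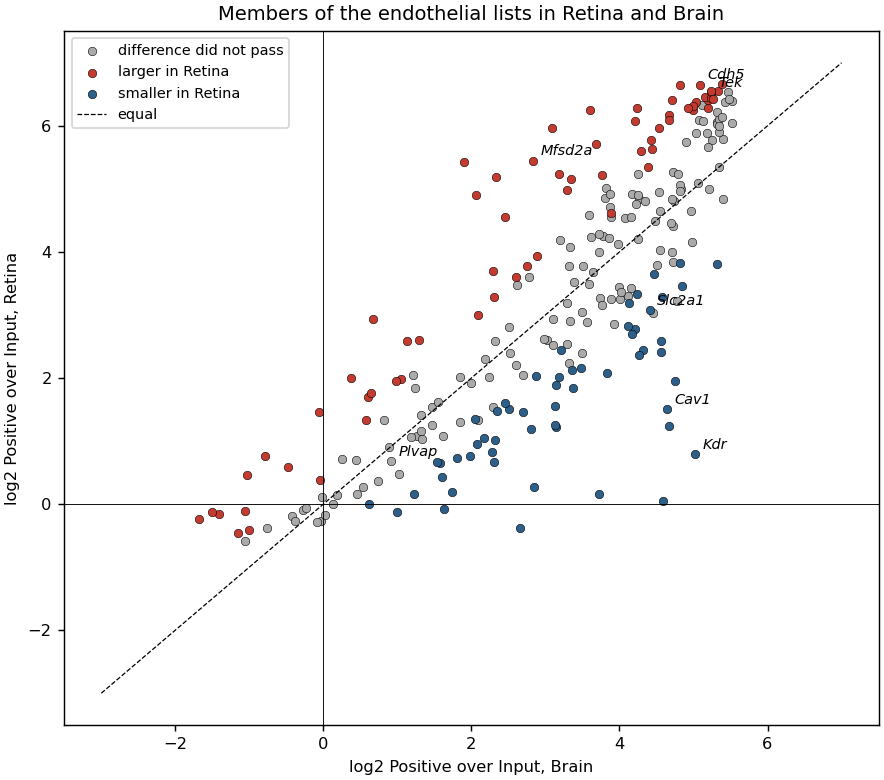
Log2 Positive over Input in brain (horizontal axis) and retina (vertical axis) of the 259 endothelial list members, coloured by the test of the difference, with equality as a dashed line. Cdh5, Tek and Mfsd2a lie above the line, and Kdr, Cav1 and Slc2a1 below it.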

How the data were processed

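RNA from 3 Retina Positive and 3 Retina Input libraries was analysed, with 3 Brain Positive and 3 Brain Input libraries for comparison. The deposited raw values are expected counts per gene, read as such from the file headers and from their fractions, and were not normalised by the authors. The deposited normalized values are on a log2 scale. Their differences from Input replicate 1 were rebuilt from the raw values and a factor for each library. For genes with raw values of 1 or more in every library, 99.9987% were recovered within 1e-04. The baseline that the authors took for each gene was not checked. Per the file headers the authors listed genes with 50 or more in every library of at least 1 fraction. The genome mm10 and the tool DESeq are named in the submitters' processing notes. No source used here names the aligner, the counter or the strand setting. Symbols are the authors', some of them older names (Gpr116 for Adgrf5, Eltd1 for Adgrl4, Ptrf and Sdpr for Cavin1 and Cavin2).

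Expected counts were rounded to whole numbers and fitted with edgeR 4.0.16 in R 4.3.3 (TMM, quasi-likelihood F test, 4 residual degrees of freedom). A filterByExpr minimum count of 10 removed 0 genes. Benjamini-Hochberg adjustment ran over all 12827 genes. The difference from Brain was tested as an interaction over 12438 genes. The scripts were tested on simulated data. Promoters came from RefSeq (GRCm38.p6), matched by Entrez identifier.

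Input and Positive libraries of a number were taken as paired, because the labels describe Input as part of the homogenate used for the pull-down. Within numbers 1, 2 and 3 the correlation of deviations from the group mean was 0.102, 0.281 and 0.0014, so the values did not single out the pairs. The main fit has no block.

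Members and lists were chosen with earlier results of these data known. Named genes were the 15 largest changes each way at or above the median level and the 10 each way below it, among genes past the threshold without overlap of the groups and with predicted symbols left out, then the first and largest members of each list and endothelial exceptions. Some genes that the rule picked are given as counts only, and Tmem100, Cyp2e1, Ftl1 and Rpl10a were added after their values were seen. Alternatives were other scaling factors, other filters, DESeq2 1.42.0, leaving out each library and the replicate block.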

Additional observations from a re-analysis of the deposited data

Results flagged for a closer look

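The following genes were picked because the test of the difference between retina and brain in Positive over Input passed, and because they had the 5 largest differences each way at or above the median level. Larger in retina were Mal (4.46 ± 0.67), Afap1l2 (4.32 ± 0.33), Atp2a3 (4.09 ± 0.33), Fam107a (3.84 ± 0.53) and Enc1 (3.80 ± 0.38), as log2 differences ± SE. Smaller in retina were Slc6a13 (-5.89 ± 0.33), Fmod (-4.98 ± 0.30), Serping1 (-4.80 ± 0.30), Pcolce (-4.68 ± 0.33) and Spp1 (-4.45 ± 0.26).

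The CPM given here are again on the joint scaling of 12 libraries. Mal measured 200.3, 294 and 569 CPM in Retina Positive libraries, against 18.5, 2.804 and 11.6 CPM in Retina Input libraries. In brain it measured 428, 348 and 444 CPM in Positive libraries, against 289, 280.2 and 269 CPM in Input libraries, so the Positive levels were alike in size and the Input levels were not. Slc6a13, a GABA and taurine carrier gene known from meningeal cells, measured 1.31, 1.07 and 1.88 CPM in Retina Positive libraries, against 5.05, 2.59 and 3.396 CPM in Retina Input libraries. Its Brain values were 415, 529 and 397 CPM in Positive libraries, against 20.8, 18.01 and 18.2 CPM in Input libraries. In the joint fit of 12 libraries, fibroblast genes as a list had median ratios of -0.21 in retina and 3.57 in brain, and their part in the differences of Slc6a13, Fmod, Serping1, Pcolce and Spp1 was not tested.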

How the results depend on the processing

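No direction of the counts over all genes depended on the scaling, which moved the median gene by under 0.1. With genes below the median level left out, the counts were 1068 higher and 886 lower, and 392 and 14 at 2-fold or more, since fewer genes were tested. Leaving out 1 library gave 1323 to 2097 higher and 513 to 1540 lower genes, and 915 to 1189 and 69 to 142 at 2-fold or more. With the replicate number as a block for the pairing, the counts were 1840 and 1245, and 1052 and 96 at 2-fold or more, and besides the calls given above the block changed none of the named genes except Rlbp1, which stood at -0.0503. Lamb1 was at 0.00791 with DESeq2 size factors and at 0.00791 by the DESeq2 Wald test. When 1 library was left out, 13 of the named genes that had not passed took both signs. Genes not named were left out of that count. Gnat1 ranged over -0.0334 to 0.32, Rlbp1 over -0.31 to 0.19, Rgs5 over -0.00595 to 0.77, Notch3 over -0.41 to 0.63, Pdgfrb over -0.31 to 0.11, Lcn2 over -0.20 to 0.27, Pacsin2 over -0.0673 to 0.0533, F2r over -0.13 to 0.0244, Lamb1 over -0.0547 to 0.0720, Lrp1 over -0.11 to 0.22, Ppap2b over -0.17 to 0.27, Rnf43 over -0.15 to 0.48 and Znrf3 over -0.0354 to 0.41. In a further setting the 10 most abundant genes were left out of the total and of any list that held them. Shares became 2.17% of Positive and 2.54% of Input libraries for rod genes and 0.301% and 0.319% for Mueller glia and astrocyte genes. They became 0.00465% of Positive libraries for microglial genes and, in Input libraries, 0.0326% for endothelial surface, 0.270% for cone and 0.229% for bipolar genes. The median of Mueller glia and astrocyte genes, -0.0189, changed sign to 0.00664 under DESeq2 size factors. Depth limits low genes, such as Cytl1 in Input libraries.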
